A study of Mus musculus with 48 samples.

Results

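Lysosomal hydrolases and membrane proteins, 32 genes in all, were followed in airspace macrophages of mice with and without Siglec-F, before and after lung injury by bleomycin. The genes encode soluble hydrolases, lipid-handling proteins and membrane proteins of the lysosome other than cathepsins, and were chosen by gene name. All 32 names were found among the 24411 genes of the count table, and all 32 passed the filter on low counts that left 12634 genes for testing.

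Siglec-F is a sialic acid-binding receptor on the surface of mouse alveolar macrophages. Cells were macrophages from bronchoalveolar lavage of male mice, and each of 8 groups held 3 mice. The mutant genotype was Siglec F KO, sampled naive (saline, marked day 0) or on day 7, 14 or 21 after bleomycin at 2.5 units/kg into the trachea, and the Wild Type (WT) mice were sampled in the same 4 states. The sources used here do not give the kind of allele, the ages of the mice or any sorting of the lavage cells. Levels below are CPM of each mouse, counts of a gene scaled to a common library total, so that they are shares and not amounts per cell. A gene was called when its edgeR quasi-likelihood test gave a Benjamini-Hochberg adjusted p under 0.05 over all genes tested.

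Lysosomes are acidic organelles that receive material by endocytosis, phagocytosis and autophagy and break it down with hydrolases, most of which work only at low pH. Alveolar macrophages depend on them to clear surfactant lipid, inhaled particles and dying cells. Loss of many of the single enzymes described here causes a lysosomal storage disease in which the substrate of that enzyme accumulates.

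Libraries held 24877049 to 47457085 counts. Siglecf itself had 0 to 25 counts in KO libraries and 2631 to 20368 in WT libraries. On the first principal component of all genes tested (57.5% of the variance) the naive mice lay at -59.2 to -54.0 and most bleomycin mice at 14.1 to 38.7. KO day 14 mice 2 and 3 lay at 1.63 and -15.8 and KO day 21 mouse 1 at -20.4, so these 3 KO libraries lay nearer to the naive mice than the rest. Their choice as libraries to be left out was made after seeing the data and for lying nearer to naive. Fits without them are therefore no test of a rise in KO mice or of a difference between the genotypes. The summed level of 13 markers of resident alveolar macrophages (Siglecf, Marco, Pparg, Chil3 and others) was 9178 to 12674 CPM in KO mice and 9010 to 11355 CPM in WT mice on day 7, and 13930 to 25649 CPM in KO mice and 11098 to 19313 CPM in WT mice on days 14 and 21, against 23547 to 30659 CPM in naive mice of both genotypes. Of these 13, 8, 3 and 0 fell on days 7, 14 and 21 in KO mice and 9, 8 and 7 in WT mice. Among all genes tested, 14.4%, 4.84% and 6.89% fell in KO mice and 15.3%, 13.4% and 13.7% in WT mice. Siglecf, near 0 in all KO libraries, could fall only in WT mice, so the 2 sets of counts are not fully alike. Of 12 markers of recruited macrophages (Ccr2, C1qa, Apoe and others), 11 rose on each day in both genotypes, and their sum reached 1969 to 7457 CPM in KO mice and 4993 to 9521 CPM in WT mice after bleomycin, against 441 to 502 CPM in naive mice. Summed markers of T and NK cells (8 genes), B cells (5 genes) and dendritic cells (6 genes) did not exceed 40.7, 5.53 and 19.0 CPM in any library, those of neutrophils (6 genes) 147 CPM and those of epithelium (8 genes) 286 CPM. Of the 7 T and NK markers tested, 6 or 7 rose on each day in both genotypes. Of the 6 dendritic cell markers, 4, 2 and 3 rose on days 7, 14 and 21 in KO mice and 6, 5 and 5 in WT mice. Among all genes tested, 19.7%, 12% and 15% rose in KO mice and 20.2%, 18.7% and 18.8% in WT mice. S100a8, Csf3r and Cxcr2 of the neutrophil list, Cd4, the dendritic cell marker Clec9a and the epithelial Epcam, Cdh1 and Scgb1a1 had counts in every library, with up to 128 CPM for S100a8 and 189 CPM for Cdh1. Ncr1 (NK cells) had 0 counts in 21 of the 24 libraries, Pax5 (B cells) in 20 and Retnlg (neutrophils) in 16, while Cd3e had 0 counts in 5 and Ms4a1 (B cells) in 3. The part of a changed mix of macrophages in the results below was not tested, and in bulk RNA fewer cells of a type and less RNA per cell cannot be told apart.

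Many of the lysosomal genes rose after bleomycin in both genotypes. On day 7, 17 of the 32 rose and 3 fell in KO mice and 14 rose and 4 fell in WT mice. Among all genes tested, 34.1% were called in KO mice on that day (19.7% higher and 14.4% lower) and 35.5% in WT mice (20.2% higher and 15.3% lower). The members' share of rises stood above the background and their share of falls did not. On day 14, 18 rose and 0 fell in KO mice (12% and 4.84% of all genes), and 24 rose and 1 fell in WT mice (18.7% and 13.4% of all genes). On day 21, 21 rose and 0 fell in KO mice (15% and 6.89% of all genes), and 22 rose and 1 fell in WT mice (18.8% and 13.7% of all genes). The median log2 fold change of the 32 against naive was 0.28, 0.35 and 0.37 on days 7, 14 and 21 in KO mice and 0.23, 0.56 and 0.45 in WT mice, while the median of all genes tested rounded to 0.00 to 0.02 in these comparisons. Without the 3 KO libraries named above, 20 members were called on day 21 in KO mice, and day 14 is left with 1 KO mouse. Without KO day 14 mouse 1 alone the day 14 count was 9. In KO mice 13 genes rose on all 3 days and 7 were called on none. In WT mice 14 genes rose on all 3 days and 4 were called on none. The 3 days of a genotype share its naive mice, so they are not independent of each other.

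Together the 32 genes summed to 18350 to 18814 CPM in naive KO mice, 24804 to 27119 on day 7, 22732 to 32677 on day 14 and 23750 to 33122 on day 21. The same sum was 17897 to 20592 CPM in naive WT mice, 26033 to 27415 on day 7, 31508 to 36238 on day 14 and 31345 to 33744 on day 21. No bleomycin mouse of either genotype overlapped the naive mice of its genotype in this sum. The sum is weighted to abundant genes. The sphingolipid group, mainly Psap, made up 7866 to 8915 CPM of it in naive WT mice and 16606 to 20209 CPM on day 14. Psap was the most abundant member per kilobase of exon in naive WT mice at 2407 CPM per kb, followed by Cd68 at 964, Lamp1 at 570 and Hexa at 430. Galc at 3.19 and Sgsh at 0.240 CPM per kb were the least abundant.

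**Figure D1:**
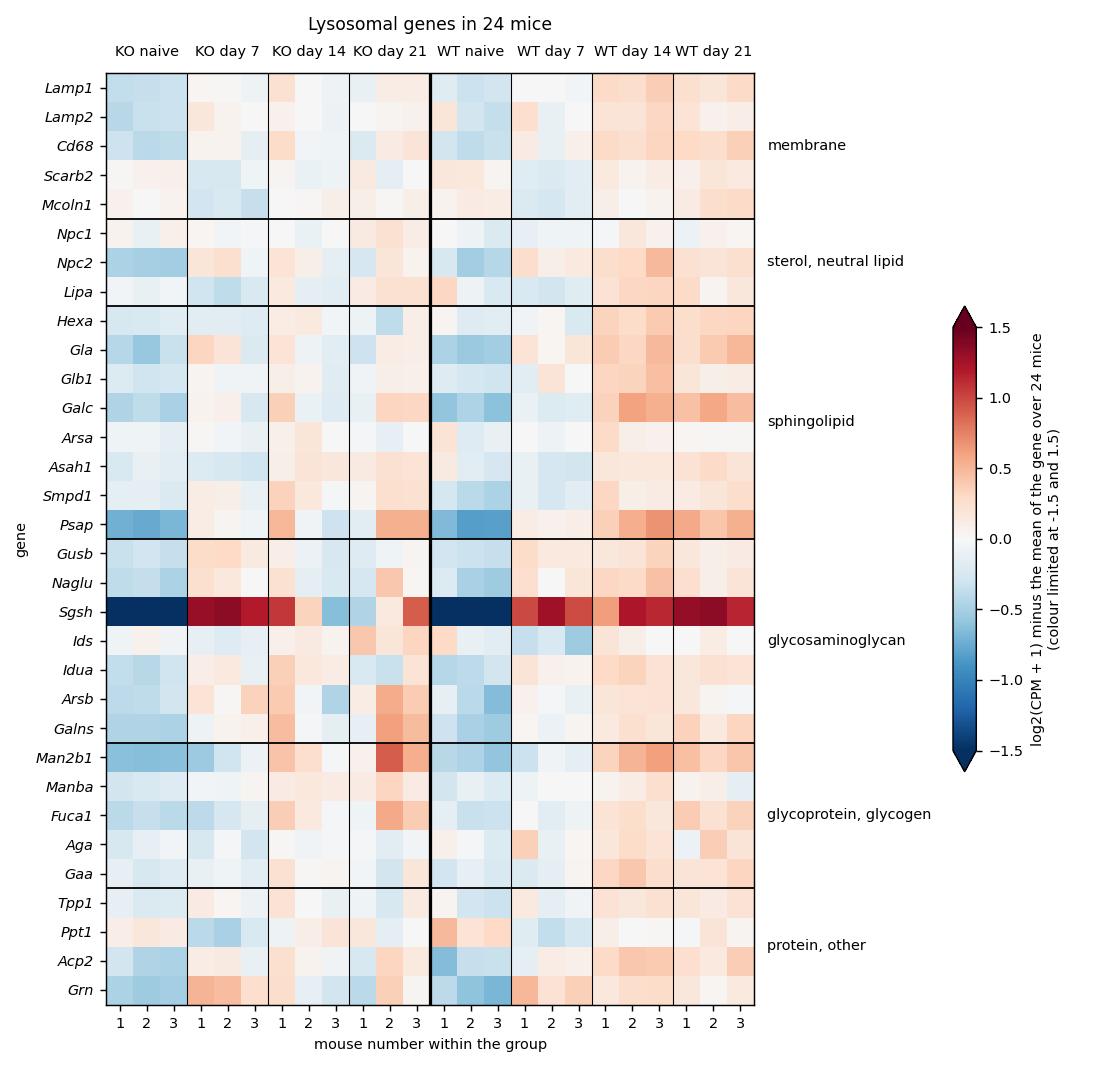
Heat map of the 32 lysosomal genes (rows, grouped by role) in the 24 mice (columns, KO left and WT right, each in order of time): colour is log2(CPM + 1) minus the mean of the gene over all mice. The 6 naive columns are blue for most genes, the step is widest for Sgsh, and KO day 14 mouse 3 and KO day 21 mouse 1 are bluer than other mice of their days for genes such as Psap and Grn.

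On day 7 the membrane proteins split into a rising and a falling group, and none was called lower on day 14 or 21. LAMP1 and LAMP2 are the major glycoproteins lining the lysosomal membrane, CD68 is a related glycoprotein abundant in macrophages, SCARB2 carries glucocerebrosidase to the lysosome, and MCOLN1 is a channel that releases lysosomal calcium. Of these 5, 3 rose on each day in KO mice, and 2, 3 and 2 rose on days 7, 14 and 21 in WT mice. Cd68 (chr11:69664213-69666153 in mm10, as are the gene positions below, from GENCODE M21) had the highest log2 fold change of these 5 on day 14 in WT mice. In KO mice, Cd68 was 1226, 1154 and 1166 CPM in naive mice, 1577, 1578 and 1385 on day 7, 1851, 1479 and 1457 on day 14 and 1308, 1660.4 and 1742 on day 21. In WT mice, Cd68 was 1260.0, 1169.6 and 1204 CPM in naive mice, 1656, 1415 and 1609 on day 7, 1858, 1807 and 1902 on day 14 and 1878, 1833 and 1945 on day 21. The naive mice lay below the bleomycin mice of their own genotype on every day, and KO day 14 mouse 1 stood with the WT mice of that day while mice 2 and 3 lay lower. Log2 fold changes of Cd68 against naive on days 7, 14 and 21 were 0.36 ± 0.10, 0.43 ± 0.10 and 0.41 ± 0.10 in KO mice and 0.36 ± 0.10, 0.62 ± 0.11 and 0.64 ± 0.11 in WT mice (± SE). The edgeR adjusted p of Cd68 was 0.0119, 0.00647 and 0.00768 in KO mice and 0.01, 0.000162 and 0.000108 in WT mice. Lamp1 (chr8:13159161-13175338) moved by a similar amount, at log2 0.33 ± 0.08, 0.40 ± 0.08 and 0.39 ± 0.08 in KO mice and 0.24 ± 0.08, 0.56 ± 0.08 and 0.49 ± 0.08 in WT mice, and all 6 changes were called. Lamp1 shares 9.31% of its exon length with Grtp1 on the other strand, and the sources used here do not say whether reads were assigned by strand. Lamp2 was called on all 3 days in KO mice (log2 0.43, 0.35 and 0.39) and in WT mice on day 14 (log2 0.37). WT naive mouse 1 had 693 CPM of Lamp2 against 504 and 477 in the other naive WT mice.

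Mcoln1 (chr8:3500457-3515232) and Scarb2 went the other way on day 7. In KO mice, Mcoln1 was 68.2, 65.2 and 67.8 CPM in naive mice, 53.2, 55.5 and 51.1 on day 7, 65.8, 66.2 and 69.6 on day 14 and 69.4, 66.2 and 69.3 on day 21. In WT mice, Mcoln1 was 68.0, 71.4 and 70.5 CPM in naive mice, 56.1, 54.1 and 58.6 on day 7, 69.3, 65.4 and 67.6 on day 14 and 71.0, 78.3 and 80.3 on day 21. Every day 7 mouse lay below every naive mouse, and by day 14 the levels overlapped the naive ones. The day 7 falls of Mcoln1 were -0.33 ± 0.07 (log2) in KO mice and -0.31 ± 0.07 in WT mice, with edgeR adjusted p of 0.000695 in KO mice and 0.00111 in WT mice. Scarb2 fell on day 7 as well (log2 -0.23 ± 0.08 in KO mice and -0.31 ± 0.08 in WT mice). Scarb2 lost its day 7 call in KO mice without KO day 7 mouse 1 or 2 or KO naive mouse 2 or 3 (adjusted p 0.0621 to 0.0890). Without KO day 14 mouse 1 or 2 or KO naive mouse 1 or 2 or 3, Lamp2 was not called on day 14 in KO mice (adjusted p 0.0850 to 0.146). The call of Cd68 on day 14 in KO mice ended without KO day 14 mouse 1 (adjusted p 0.0622). Lamp2 lost its day 21 call in KO mice without KO day 21 mouse 2 or 3 or KO naive mouse 1 (adjusted p 0.0527 to 0.0718). Without KO day 21 mouse 3, Cd68 was not called on day 21 in KO mice (adjusted p 0.0575). The call of Lamp1 on day 7 in WT mice ended without WT day 7 mouse 1 or 2 or WT naive mouse 2 or 3 (adjusted p 0.0510 to 0.0938). Lamp2 lost its day 14 call in WT mice without WT day 14 mouse 3 or WT naive mouse 2 or 3 (adjusted p 0.0733 to 0.110). In a fit restricted to the groups compared, Cd68 and Mcoln1 were not called on day 7 in WT mice (adjusted p 0.0511 and 0.0540).

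Many lysosomal genes carry near their start the letters CACGTG, the core of the motif bound by the MiT/TFE factors TFEB, TFE3 and MITF, which drive lysosomal gene expression. Promoter windows of 300 bases, 250 before to 50 after the RefSeq start (GRCm38.p6), were matched by symbol for 28 of the 32 genes and not for Aga, Asah1, Galns and Npc1. CACGTG, which reads the same on both strands, was found in 8 of the 28 (28.6%), against 8.09% of 27025 genes with a window. The 8 were Arsa, Gaa, Gla, Glb1, Lamp1, Mcoln1, Naglu and Sgsh. The longer TCACGTGA, which contains the core, was found in Gla and Mcoln1, 2 of 28 (7.14%) against 1.12% of all genes. A match describes letters in the window and is not evidence of binding. The windows of Lamp1 and Mcoln1 are shown because one gene rose and the other fell on day 7 with the same core in the window. That of Lamp1 holds the core 4 times, with first bases at -61, -45, -28 and -15 from the start. That of Mcoln1 holds a core at -71 and another at -45, which lies within the longer form. Positions count from the RefSeq start, which for genes such as Mcoln1, Gla and Sgsh lies downstream of the GENCODE start. The Mcoln1 core at -45 thus lies inside the gene as placed by GENCODE. The sequences run 5′ to 3′ on the strand of the gene (chr8:13158911-13159210, plus strand, and chr8:3500269-3500568, plus strand), with capitals marking the motif.
Lamp1: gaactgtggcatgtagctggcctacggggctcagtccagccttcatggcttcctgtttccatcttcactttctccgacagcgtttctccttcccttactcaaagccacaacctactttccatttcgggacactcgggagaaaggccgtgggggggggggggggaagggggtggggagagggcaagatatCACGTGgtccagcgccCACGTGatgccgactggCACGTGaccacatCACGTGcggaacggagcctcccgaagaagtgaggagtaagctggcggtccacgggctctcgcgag
Mcoln1: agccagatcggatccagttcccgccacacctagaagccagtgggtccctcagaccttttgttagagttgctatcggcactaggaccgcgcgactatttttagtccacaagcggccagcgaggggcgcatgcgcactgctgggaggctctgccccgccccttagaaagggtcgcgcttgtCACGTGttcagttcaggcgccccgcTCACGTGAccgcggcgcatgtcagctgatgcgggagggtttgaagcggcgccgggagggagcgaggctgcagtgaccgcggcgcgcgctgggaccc

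Enzymes that degrade glycosaminoglycans, the sulfated sugar chains of proteoglycans, rose in most members. Of 7, 6 rose on day 7, 4 on day 14 and 6 on day 21 in KO mice, and 5, 6 and 6 rose in WT mice on the same days. Sgsh (chr11:119343425-119355536), the sulfamidase that removes N-linked sulfate from heparan sulfate, had the highest fold change of the 32 on every day in both genotypes. In KO mice, Sgsh was 1.68, 0.749 and 2.17 CPM in naive mice, 30.9, 31.8 and 28.5 on day 7, 26.0, 15.2 and 7.33 on day 14 and 8.45, 13.3 and 23.3 on day 21. In WT mice, Sgsh was 0.660, 1.09 and 1.43 CPM in naive mice, 24.7, 30.1 and 24.5 on day 7, 19.0, 28.9 and 27.2 on day 14 and 31.3, 31.8 and 27.5 on day 21. The naive mice of both genotypes were at most at 2.17 CPM and every bleomycin mouse was at 7.33 CPM or above, with KO day 14 mouse 3 and KO day 21 mouse 1 the lowest of these. Log2 fold changes of Sgsh against naive on days 7, 14 and 21 were 4.30 ± 0.43, 3.39 ± 0.42 and 3.29 ± 0.42 in KO mice, with edgeR adjusted p of 2.56e-07, 8.41e-06 and 9.50e-06. They were 4.59 ± 0.45, 4.51 ± 0.45 and 4.78 ± 0.45 in WT mice, with edgeR adjusted p of 2.04e-07, 2.96e-07 and 1.79e-07. Without the 3 KO libraries that lay nearer to the naive mice, the day 14 value in KO mice was log2 4.09. Card14, which covers 21.6% of the exon length of Sgsh on the other strand, did not exceed 0.465 CPM in any library and was too low to test.

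The start of Sgsh lies 21 bases from that of Slc26a11, a gene for an anion transporter that runs the other way and shares no exon with it. Slc26a11 was looked up after the values of Sgsh were seen. In KO mice, Slc26a11 was 0.161, 0.193 and 0.0923 CPM in naive mice, 5.28, 4.11 and 2.26 on day 7, 2.76, 2.32 and 1.35 on day 14 and 1.11, 2.72 and 2.85 on day 21. In WT mice, Slc26a11 was 0.233, 0.264 and 0.218 CPM in naive mice, 2.94, 4.41 and 4.48 on day 7, 2.10, 4.53 and 4.24 on day 14 and 3.44, 2.60 and 3.39 on day 21. Its naive and bleomycin mice did not overlap in either genotype, and log2 fold changes were 4.68 ± 0.48, 3.81 ± 0.47 and 3.87 ± 0.47 in KO mice and 4.04 ± 0.46, 3.91 ± 0.46 and 3.71 ± 0.46 in WT mice on days 7, 14 and 21, with a largest edgeR adjusted p of 7.98e-06. Naive libraries held only 4 to 11 counts of Slc26a11, so its fold changes are imprecise. The window of Sgsh (chr11:119355461-119355760, minus strand) is shown because it spans both starts, with 1 core motif in capitals at -29. That position counts from the RefSeq start of Sgsh, which lies downstream of the GENCODE start (119355536) used for the 21 bases. The core lies over that GENCODE start and outside Slc26a11, which starts at 119355557.
Sgsh: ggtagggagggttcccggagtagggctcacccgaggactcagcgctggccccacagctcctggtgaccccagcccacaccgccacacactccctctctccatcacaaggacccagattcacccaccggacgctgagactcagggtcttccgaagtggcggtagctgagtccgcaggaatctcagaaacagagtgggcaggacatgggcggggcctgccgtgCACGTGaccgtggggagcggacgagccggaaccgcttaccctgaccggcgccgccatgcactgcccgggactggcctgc

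The other glycosaminoglycan enzymes moved far less. Galns, which removes sulfate from keratan and chondroitin sulfate, rose on all 3 days by log2 0.49 ± 0.15, 0.59 ± 0.15 and 0.82 ± 0.15 in KO mice and 0.44 ± 0.15, 0.63 ± 0.15 and 0.72 ± 0.15 in WT mice. Gusb, beta-glucuronidase, rose by log2 0.56 ± 0.09, 0.25 ± 0.09 and 0.25 ± 0.09 in KO mice and 0.51 ± 0.09, 0.56 ± 0.09 and 0.45 ± 0.09 in WT mice on the same days. Naglu, another enzyme of heparan sulfate breakdown, rose by log2 0.54 on day 7 and 0.49 on day 21 in KO mice and by 0.56, 0.76 and 0.59 in WT mice. Idua, alpha-L-iduronidase, rose on days 7 and 14 in KO mice (log2 0.41 and 0.58) and on all 3 days in WT mice (log2 0.48, 0.66 and 0.58). Arsb, a sulfatase of dermatan and chondroitin sulfate, rose on days 7 and 21 in KO mice (log2 0.55 and 0.72) and on days 14 and 21 in WT mice (log2 0.58 and 0.45), and a noncoding gene on the other strand covers 32.3% of its exon length. Ids (chrX:70343069-70365084), iduronate 2-sulfatase, was the lowest of this group on day 14 in WT mice. In KO mice, Ids was 128, 141 and 129.9 CPM in naive mice, 123, 118 and 123 on day 7, 142, 148 and 139.6 on day 14 and 178, 152 and 168 on day 21. In WT mice, Ids was 166, 124 and 119 CPM in naive mice, 105, 115 and 92.9 on day 7, 154, 143 and 135 on day 14 and 135, 146 and 134 on day 21. WT naive mouse 1 stood above the other naive WT mice, the day 7 WT mice lay below all naive WT mice, and the later WT groups overlapped naive, while the KO mice of day 21 lay above all naive KO mice. Ids fell on day 7 in WT mice (log2 -0.38 ± 0.11, edgeR adjusted p 0.00773) and rose on day 21 in KO mice (log2 0.32 ± 0.11, edgeR adjusted p 0.0339). Gusb lost its day 14 call in KO mice without KO day 14 mouse 1 or 2 or KO naive mouse 1 or 2 or 3 (adjusted p 0.0943 to 0.289). Without KO day 14 mouse 1, Galns was not called on day 14 in KO mice (adjusted p 0.0929). The call of Gusb on day 21 in KO mice ended without KO day 21 mouse 2 or 3 or KO naive mouse 1 or 2 or 3 (adjusted p 0.0786 to 0.190). Naglu lost its day 21 call in KO mice without KO day 21 mouse 2 or KO naive mouse 3 (adjusted p 0.0651 to 0.153). Without KO day 21 mouse 1 or 3 or KO naive mouse 1 or 3, Ids was not called on day 21 in KO mice (adjusted p 0.0893 to 0.110). The call of Ids on day 7 in WT mice ended without WT naive mouse 1 (adjusted p 0.0697). Galns lost its day 7 call in WT mice without WT day 7 mouse 1 or 3 or WT naive mouse 2 or 3 (adjusted p 0.0637 to 0.0874). Without WT naive mouse 3, Arsb was not called on day 14 in WT mice (adjusted p 0.0585). The call of Arsb on day 21 in WT mice ended without WT day 21 mouse 1 or 2 or 3 or WT naive mouse 2 or 3 (adjusted p 0.0575 to 0.177).

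**Figure D2:**
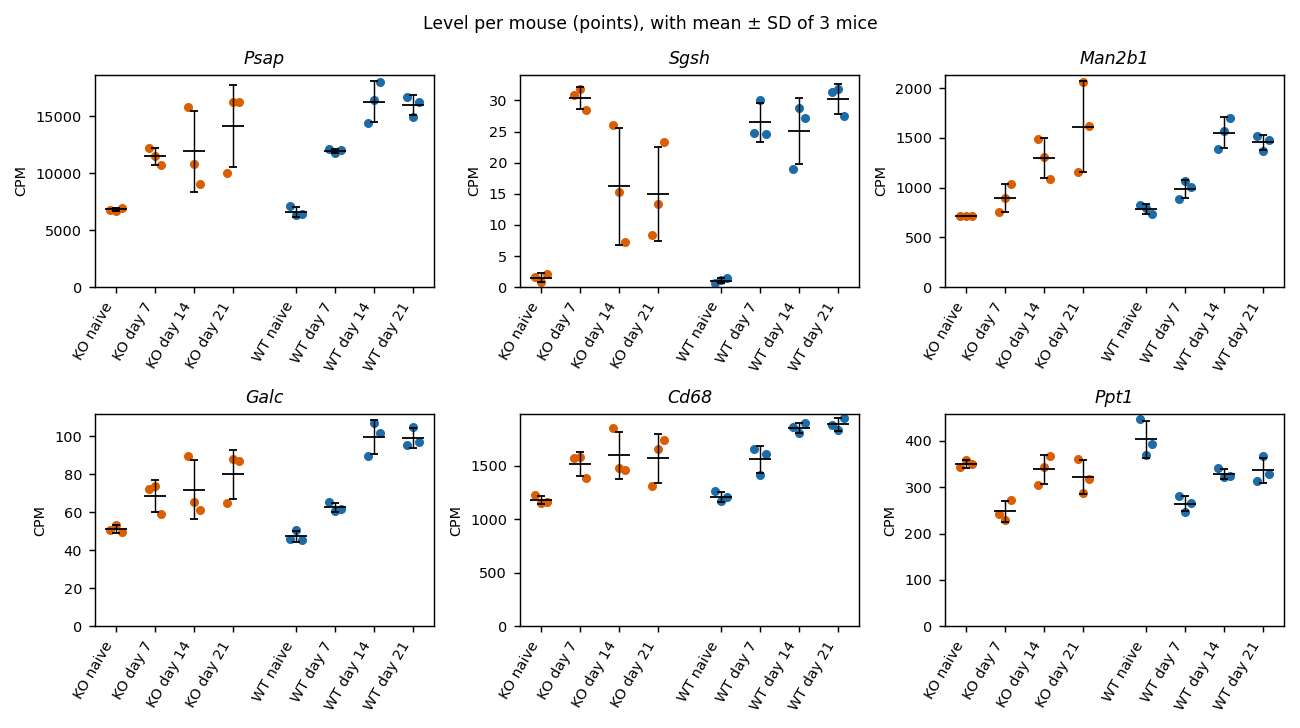
Level of 6 lysosomal genes in CPM on linear axes from 0, with 1 point per mouse, KO groups (orange) left of WT groups (blue) and times from naive to day 21, and a line and bar for the mean ± SD of 3 mice. Sgsh is near 0 in all naive mice, Psap separates naive from bleomycin mice in both genotypes, and Ppt1 is lowest on day 7.

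Enzymes and activators of sphingolipid breakdown rose broadly on days 14 and 21. Of 8, 4, 5 and 6 rose on days 7, 14 and 21 in KO mice, and 4, 7 and 7 rose in WT mice, with none falling. Psap (chr10:60277627-60302597) encodes prosaposin, the precursor of the saposins that present sphingolipids to their hydrolases. In KO mice, Psap was 6788, 6668 and 6973 CPM in naive mice, 12173, 11517 and 10725 on day 7, 15829, 10792 and 9059.8 on day 14 and 10001, 16223 and 16217 on day 21. In WT mice, Psap was 7107, 6326 and 6379.6 CPM in naive mice, 12101, 11742 and 12016 on day 7, 14404, 16446 and 17951 on day 14 and 16646, 14934 and 16270.0 on day 21. Every bleomycin mouse was above every naive mouse, and KO day 14 mouse 3 and KO day 21 mouse 1 were the lowest of their days. Log2 fold changes of Psap against naive were 0.75 ± 0.17, 0.80 ± 0.17 and 1.05 ± 0.17 in KO mice and 0.86 ± 0.17, 1.30 ± 0.17 and 1.27 ± 0.17 in WT mice on days 7, 14 and 21. The edgeR adjusted p of Psap was 0.00175, 0.00221 and 0.000138 in KO mice and 0.000565, 9.16e-06 and 1.14e-05 in WT mice. Galc (chr12:98202294-98259459) encodes galactosylceramidase. In KO mice, Galc was 51.0, 53.6 and 49.7 CPM in naive mice, 72.5, 74.1 and 59.2 on day 7, 89.7, 65.3 and 61.1 on day 14 and 64.9, 87.9 and 87.2 on day 21. In WT mice, Galc was 46.3, 50.7 and 45.5 CPM in naive mice, 65.4, 60.7 and 61.8 on day 7, 89.6, 107 and 102 on day 14 and 95.3, 105 and 96.9 on day 21. All bleomycin mice lay above the naive mice, and on day 14 KO mice 2 and 3 lay below all 3 WT mice. Galc rose by log2 0.42 ± 0.13, 0.49 ± 0.13 and 0.64 ± 0.13 in KO mice and 0.40 ± 0.13, 1.07 ± 0.13 and 1.06 ± 0.13 in WT mice. The edgeR adjusted p of Galc was 0.0184, 0.0139 and 0.00146 in KO mice and 0.0227, 4.35e-06 and 4.81e-06 in WT mice.

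Gla, alpha-galactosidase A, rose on all 3 days, by log2 0.57 ± 0.13, 0.45 ± 0.13 and 0.43 ± 0.13 in KO mice and 0.67 ± 0.13, 0.92 ± 0.13 and 0.91 ± 0.13 in WT mice. Its window (chrX:134600956-134601255, minus strand) is shown as the member with TCACGTGA in 2 places, in capitals, with the core starting at -227 and -194.
Gla: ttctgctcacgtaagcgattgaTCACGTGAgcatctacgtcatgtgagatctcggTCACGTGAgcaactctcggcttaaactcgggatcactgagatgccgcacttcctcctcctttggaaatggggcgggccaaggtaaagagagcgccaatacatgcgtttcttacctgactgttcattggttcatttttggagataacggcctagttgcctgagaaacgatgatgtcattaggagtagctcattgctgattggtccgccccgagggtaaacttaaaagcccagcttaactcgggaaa

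Glb1, lysosomal beta-galactosidase, rose by log2 0.24 on day 7 and 0.30 on day 21 in KO mice and by 0.27, 0.63 and 0.38 in WT mice. Smpd1, acid sphingomyelinase, rose on days 14 and 21 in KO mice (log2 0.34 and 0.35) and in WT mice (log2 0.57 and 0.58). Asah1, acid ceramidase, rose on the same days in KO mice (log2 0.32 and 0.36) and in WT mice (log2 0.25 and 0.32). Hexa, the alpha subunit of beta-hexosaminidase, rose in WT mice on days 14 and 21 (log2 0.44 ± 0.10 and 0.40 ± 0.10), and in KO mice its values were 0.29 ± 0.10 and 0.12 ± 0.10 with edgeR adjusted p of 0.0512 and 0.45. Tmem202 on the other strand covers 12.8% of the exon length of Hexa. Arsa (chr15:89472476-89477425), the sulfatase of sulfatide, was called on no day. In KO mice, Arsa was 69.2, 69.2 and 65.0 CPM in naive mice, 73.3, 70.1 and 66.8 on day 7, 76.1, 82.2 and 72.5 on day 14 and 71.1, 66.4 and 72.0 on day 21. In WT mice, Arsa was 83.3, 62.9 and 67.1 CPM in naive mice, 72.9, 68.3 and 72.0 on day 7, 88.2, 77.1 and 75.4 on day 14 and 73.8, 73.5 and 73.3 on day 21. WT naive mouse 1 was above the other naive mice, while the KO mice of day 14 lay above the naive KO mice, and the other groups overlapped naive. An antisense gene covers 18.8% of the exon length of Arsa. Glb1 lost its day 7 call in KO mice without KO day 7 mouse 1 or 2 or KO naive mouse 1 or 2 or 3 (adjusted p 0.0584 to 0.138). Without KO day 7 mouse 1 or 2 or KO naive mouse 1 or 3, Galc was not called on day 7 in KO mice (adjusted p 0.0516 to 0.0777). The call of Gla on day 14 in KO mice ended without KO day 14 mouse 1 or KO naive mouse 1 or 2 (adjusted p 0.0590 to 0.152). Galc lost its day 14 call in KO mice without KO day 14 mouse 1 or KO naive mouse 3 (adjusted p 0.0578 to 0.144). Without KO day 14 mouse 2 or KO naive mouse 1, Asah1 was not called on day 14 in KO mice (adjusted p 0.0524 to 0.0534). The call of Smpd1 on day 14 in KO mice ended without KO day 14 mouse 1 or 2 or KO naive mouse 1 or 2 or 3 (adjusted p 0.0509 to 0.161). Gla lost its day 21 call in KO mice without KO day 21 mouse 2 or 3 or KO naive mouse 1 or 2 (adjusted p 0.0587 to 0.109). Without KO day 21 mouse 2 or 3 or KO naive mouse 2 or 3, Glb1 was not called on day 21 in KO mice (adjusted p 0.0659 to 0.0789). The call of Smpd1 on day 21 in KO mice ended without KO day 21 mouse 2 or 3 or KO naive mouse 3 (adjusted p 0.0686 to 0.0709). Glb1 lost its day 7 call in WT mice without WT day 7 mouse 2 or WT naive mouse 2 or 3 (adjusted p 0.0503 to 0.110). Without WT day 7 mouse 1 or WT naive mouse 1 or 3, Galc was not called on day 7 in WT mice (adjusted p 0.0589 to 0.0709). The call of Asah1 on day 14 in WT mice ended without WT day 14 mouse 1 or 2 or 3 or WT naive mouse 2 or 3 (adjusted p 0.0624 to 0.156).

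Enzymes that trim glycoproteins and glycogen rose mainly on days 14 and 21. Of 5, 1, 3 and 3 rose on days 7, 14 and 21 in KO mice, and 0, 4 and 3 in WT mice, with none falling. The day 7 share in KO mice, 20% of this group, was that of all genes (19.7%). Man2b1 (chr8:85083270-85098282), lysosomal alpha-mannosidase, rose most. In KO mice, Man2b1 was 714, 712 and 714 CPM in naive mice, 756, 895 and 1036 on day 7, 1488, 1313 and 1088 on day 14 and 1154, 2067 and 1617 on day 21. In WT mice, Man2b1 was 825, 799.6 and 732 CPM in naive mice, 885, 1069 and 1008 on day 7, 1391, 1575 and 1697 on day 14 and 1514, 1369.8 and 1479 on day 21. Day 7 levels lay a little above naive, and days 14 and 21 lay above every naive mouse, with KO day 21 mouse 2 the highest of all 24. Man2b1 was not called on day 7 (log2 0.33 ± 0.16 in KO mice and 0.33 ± 0.16 in WT mice), and rose by log2 0.86 ± 0.16 and 1.18 ± 0.16 on days 14 and 21 in KO mice and by 0.98 ± 0.16 and 0.89 ± 0.16 in WT mice, with edgeR adjusted p of 0.000597 and 1.74e-05 in KO mice and 8.71e-05 and 0.000244 in WT mice. Fuca1, alpha-fucosidase, had the same timing, rising by log2 0.56 and 0.71 in KO mice and 0.48 and 0.58 in WT mice. Manba, beta-mannosidase, rose by log2 0.21, 0.37 and 0.42 in KO mice and by 0.34 on day 14 in WT mice. Gaa, the acid alpha-glucosidase of glycogen, rose on days 14 and 21 in WT mice (log2 0.54 ± 0.10 and 0.45 ± 0.10) and was not called in KO mice (log2 0.28 ± 0.10 and 0.15 ± 0.10, edgeR adjusted p 0.0552 and 0.298). Aga (chr8:53511727-53523421), aspartylglucosaminidase, was called on no day. In KO mice, Aga was 22.7, 24.7 and 26.2 CPM in naive mice, 22.7, 26.3 and 22.2 on day 7, 27.3, 26.0 and 26.7 on day 14 and 26.4, 23.8 and 26.2 on day 21. In WT mice, Aga was 28.4, 26.4 and 23.3 CPM in naive mice, 34.8, 24.8 and 27.6 on day 7, 30.6, 32.8 and 31.3 on day 14 and 25.2, 35.2 and 30.9 on day 21. WT mice of day 14 lay above the naive WT mice, and the other groups overlapped naive. Manba lost its day 7 call in KO mice without KO day 7 mouse 1 or 2 or 3 or KO naive mouse 1 or 2 or 3 (adjusted p 0.0603 to 0.126).

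Of the 3 genes of sterol and neutral lipid handling, Npc2 was the only one called against naive, on all 3 days in both genotypes. NPC2 binds cholesterol in the lysosomal lumen and hands it to NPC1, the membrane protein that exports it, and LIPA is the acid lipase that frees cholesterol from its esters. In KO mice, Npc2 (chr12:84754562-84773152) was 603, 591 and 585 CPM in naive mice, 949, 989 and 801 on day 7, 968, 887 and 763 on day 14 and 705, 953 and 866 on day 21. In WT mice, Npc2 was 712, 582 and 621 CPM in naive mice, 1002, 887 and 924 on day 7, 1004, 1035 and 1175 on day 14 and 980.2, 954 and 992 on day 21. Every bleomycin mouse lay above the naive mice of its genotype, with KO day 21 mouse 1 lowest. Npc2 rose by log2 0.62 ± 0.11, 0.56 ± 0.11 and 0.50 ± 0.11 in KO mice and 0.56 ± 0.11, 0.75 ± 0.11 and 0.61 ± 0.11 in WT mice on days 7, 14 and 21. The edgeR adjusted p of Npc2 was 0.00025, 0.00157 and 0.00289 in KO mice and 0.000706, 4.52e-05 and 0.000346 in WT mice. In KO mice, Npc1 (chr18:12189692-12236400) was 593, 528 and 604 CPM in naive mice, 583, 554 and 559 on day 7, 571, 532 and 569.6 on day 14 and 625, 667 and 615 on day 21. In WT mice, Npc1 was 569.9, 544 and 493.1 CPM in naive mice, 523.9, 547 and 548 on day 7, 562, 641 and 597 on day 14 and 536, 598 and 581 on day 21. Naive and bleomycin mice overlapped for Npc1 except on day 21 in KO mice, which lay above naive, and its log2 values were -0.02 ± 0.08, -0.04 ± 0.08 and 0.15 ± 0.08 in KO mice and 0.01 ± 0.08, 0.16 ± 0.08 and 0.09 ± 0.08 in WT mice. Lipa lay between log2 -0.25 and 0.26 over the 6 comparisons.

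The remaining 4 members act on proteins or phosphate esters, or are processed in the lysosome. Grn, which encodes progranulin, a precursor cut into granulins there, rose on every day and most on day 7, by log2 0.93 ± 0.15, 0.48 ± 0.15 and 0.54 ± 0.15 in KO mice and 0.93 ± 0.15, 0.79 ± 0.15 and 0.68 ± 0.15 in WT mice. Acp2 (chr2:91202885-91214098), lysosomal acid phosphatase, rose on every day too. In KO mice, Acp2 was 149, 132 and 130.1 CPM in naive mice, 196, 199.7 and 168 on day 7, 215, 189 and 174 on day 14 and 153, 226 and 201 on day 21. In WT mice, Acp2 was 115, 142 and 144 CPM in naive mice, 165, 196 and 191 on day 7, 222, 239 and 239 on day 14 and 216, 201 and 234 on day 21. All bleomycin mice lay above the naive mice of their genotype. Log2 fold changes of Acp2 were 0.46 ± 0.13, 0.49 ± 0.13 and 0.50 ± 0.13 in KO mice and 0.47 ± 0.13, 0.81 ± 0.13 and 0.70 ± 0.13 in WT mice. The edgeR adjusted p of Acp2 was 0.0082, 0.0105 and 0.00762 in KO mice and 0.00701, 6.91e-05 and 0.000282 in WT mice. Ddb2 on the other strand covers 12.6% of its exon length. Tpp1, tripeptidyl peptidase 1, rose on days 14 and 21 in WT mice (log2 0.39 and 0.36) and was not called in KO mice (log2 0.23 and 0.14).

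Ppt1 (chr4:122836242-122859175), the thioesterase that removes fatty acids from proteins, was the 1 member that fell on all 3 days in WT mice. In KO mice, Ppt1 was 342, 359 and 349 CPM in naive mice, 241, 229 and 273 on day 7, 304, 344 and 366 on day 14 and 359, 288 and 318 on day 21. In WT mice, Ppt1 was 447, 369 and 393 CPM in naive mice, 281, 247 and 265 on day 7, 341, 322 and 323 on day 14 and 314, 366 and 328 on day 21. Day 7 mice lay below naive mice in both genotypes, in WT mice the later days lay below naive as well, and the later KO mice overlapped naive ones. Log2 fold changes of Ppt1 were -0.50 ± 0.10, -0.05 ± 0.10 and -0.12 ± 0.10 in KO mice and -0.61 ± 0.10, -0.29 ± 0.10 and -0.26 ± 0.10 in WT mice on days 7, 14 and 21. The edgeR adjusted p of Ppt1 was 0.000573, 0.788 and 0.422 in KO mice and 8.66e-05, 0.0285 and 0.0485 in WT mice. Acp2 lost its day 14 call in KO mice without KO day 14 mouse 1 or KO naive mouse 3 (adjusted p 0.0526 to 0.0714). Without KO day 14 mouse 1 or 2 or KO naive mouse 1 or 2 or 3, Grn was not called on day 14 in KO mice (adjusted p 0.0511 to 0.218). The call of Acp2 on day 21 in KO mice ended without KO day 21 mouse 2 (adjusted p 0.0668). Grn lost its day 21 call in KO mice without KO day 21 mouse 2 (adjusted p 0.127). Without WT naive mouse 2 or 3, Tpp1 was not called on day 14 in WT mice (adjusted p 0.0533 to 0.0649). The call of Ppt1 on day 14 in WT mice ended without WT day 14 mouse 2 or 3 or WT naive mouse 1 or 3 (adjusted p 0.0543 to 0.134). Tpp1 lost its day 21 call in WT mice without WT day 21 mouse 3 or WT naive mouse 2 or 3 (adjusted p 0.0629 to 0.0938). Without WT day 21 mouse 1 or 3 or WT naive mouse 1 or 3, Ppt1 was not called on day 21 in WT mice (adjusted p 0.0840 to 0.201). The day 21 fall of Ppt1 also missed the threshold with median-ratio scaling (adjusted p 0.0550) and without a filter on low counts (0.0701).

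**Figure D3:**
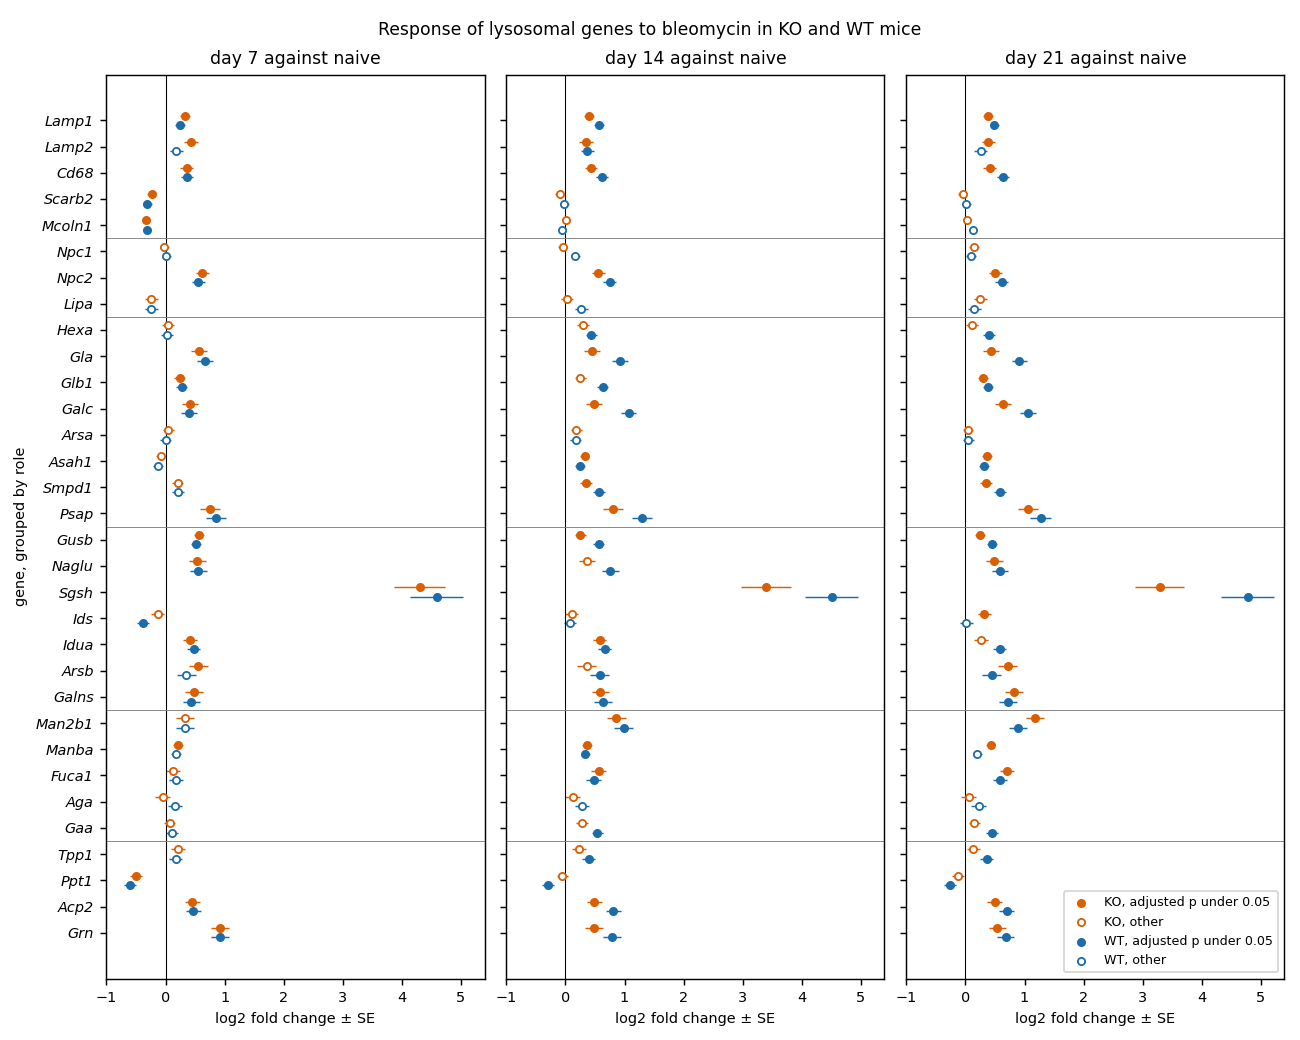
Log2 fold change ± SE against naive mice of the same genotype for the 32 genes (rows, grouped by role) on days 7, 14 and 21, KO (orange) above WT (blue), with filled points where the edgeR adjusted p was under 0.05. Sgsh stands at 3.29 to 4.78, Psap is the next highest on days 14 and 21 in WT mice, and filled points left of 0 appear mainly on day 7.

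Within the bleomycin period, day 21 against day 7, 7 members were higher and 1 was lower in KO mice (7.16% and 7.73% of all genes tested), and 12 were higher and 0 lower in WT mice (5.49% and 6.15% of all genes). In KO mice Man2b1 was higher by log2 0.85 ± 0.16, Fuca1 by 0.58 ± 0.12, Lipa by 0.49 ± 0.11, Ids by 0.46 ± 0.11, Asah1 by 0.44 ± 0.08, Ppt1 by 0.38 ± 0.10 and Mcoln1 by 0.36 ± 0.07, and Gusb fell by 0.31 on the log2 scale. In WT mice Galc was higher by log2 0.66 ± 0.13, Man2b1 by 0.56 ± 0.16, Mcoln1 by 0.44 ± 0.07 and Asah1 by 0.44 ± 0.08, and the other 8 called, among them Scarb2 and Lipa, by 0.32 to 0.40. Leaving out any 1 of the 6 WT mice brought the WT count to between 5 and 8, and Asah1, Galc, Mcoln1 and Scarb2 were called in each of those fits, while Man2b1 was not called without WT day 7 mouse 1 or 3 or WT day 21 mouse 1 or 3 (adjusted p 0.0604 to 0.0947). In KO mice Gusb and Ppt1 were not called without KO day 7 mouse 1 or 2 or KO day 21 mouse 1 (adjusted p 0.0614 to 0.0849), and a model of those 2 groups alone called 1 member. Sgsh had log2 -1.02 ± 0.37 in KO mice between these days, which missed the threshold (edgeR adjusted p 0.0681), and 0.19 ± 0.36 in WT mice.

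Siglec-F KO against WT at the same time addressed whether the receptor alters these genes. No member was called naive, on day 7, 14 or 21, or averaged over the 3 days, where edgeR called 0.546%, 0.00792%, 0.135%, 0.095% and 0.507% of all genes tested. Of all genes, 0.0317% were called higher and 0.103% lower on day 14, and 0.0396% higher and 0.0554% lower on day 21. At an unadjusted p under 0.05 there were 1, 1, 13, 12 and 15 of the 32 in these comparisons, against 1053, 580, 1269, 1236 and 1640 of all 12634 genes. DESeq2 called 0, 0, 2, 1 and 3 members and limma-voom 0, 0, 0, 0 and 1. The median log2 fold change of the 32 was -0.03 naive, -0.01 on day 7, -0.24 on day 14 and -0.11 on day 21, where the median of all genes rounded to 0.00 to 0.01, and 20, 17, 31 and 25 of the 32 had a negative value. On day 14 all 3 KO mice lay below all 3 WT mice for 13 members and above them for 0, against 8.41% and 7.05% of all genes. On day 21 they lay below for 11 and above for 3, against 8.24% and 7.53% of all genes.

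The lowest day 14 values were those of Sgsh (log2 -0.63 ± 0.37, edgeR adjusted p 0.613) and Galc (-0.47 ± 0.13, adjusted p 0.169), and the highest those of Ppt1 (0.04 ± 0.10) and Mcoln1 (-0.00 ± 0.07). Glb1 had 104, 102 and 86.0 CPM in KO mice 1 to 3 on day 14, against 123, 123 and 134 CPM in WT mice (log2 -0.38 ± 0.09, edgeR adjusted p 0.108, DESeq2 adjusted p 0.00948). Gusb had 610.0, 532 and 479.9 CPM in KO mice, against 639, 650.1 and 717 CPM in WT mice (log2 -0.31 ± 0.09, edgeR adjusted p 0.169, DESeq2 adjusted p 0.0499). On day 21 Hexa had 879, 711 and 991 CPM in KO mice, against 1106, 1142 and 1150.1 CPM in WT mice (log2 -0.40 ± 0.10, edgeR adjusted p 0.126, DESeq2 adjusted p 0.0199). For each of these 3 genes the groups did not overlap, and the KO mice spread more widely than the WT mice.

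The KO mice of day 14 also differed from each other in the summed lysosomal level. The 32 genes summed to 32677, 25464 and 22732 CPM in KO mice 1, 2 and 3 on day 14, against 31508 to 36238 CPM in WT mice. Of the KO sums, 10861 to 17790 CPM came from the sphingolipid genes, mainly Psap, and 4151 to 5043 CPM from the membrane genes. The sum is therefore weighted to abundant genes. Recruited macrophage markers summed to 5132, 3561 and 1969 CPM in the same KO mice, against 5636, 7164 and 9521 CPM in WT mice 1, 2 and 3. Resident markers summed to 14771, 20449 and 25649 CPM in KO mice 1, 2 and 3, against 16835, 12913 and 11098 CPM in WT mice 1, 2 and 3. The part of these markers in the difference between the genotypes was not tested. On day 21 KO mice 1, 2 and 3 had 23750, 33122 and 32556 CPM of the lysosomal set, 2162, 7203 and 4404 CPM of recruited markers and 23978, 20775 and 13930 CPM of resident markers. A further fit left out KO day 14 mice 2 and 3 and KO day 21 mouse 1. The median log2 fold change of the 32 against WT was then -0.06 on day 14 and -0.08 on day 21. Of the 32 values, 23 and 20 were negative, and 0 members were called on day 21. KO day 14 is then 1 mouse, assumed to vary as the other groups do, and the value of Sgsh on that day was log2 0.06. That fit drops libraries for lying nearer to naive, so it is no test of the difference between the genotypes. Without KO day 14 mouse 1 instead, 5 members (Lamp1, Glb1, Galc, Psap and Gusb) were called lower on day 14, and without KO day 21 mouse 3, 2 members (Hexa and Idua) were called lower on day 21.

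The difference between the genotypes in their response to bleomycin was called for no member on day 7, 14 or 21 by edgeR, DESeq2 or limma-voom, where edgeR called 0.00792%, 0.332% and 0.332% of all genes, and 0, 4 and 4 members had an unadjusted edgeR p under 0.05. On days 14 and 21 that was 12.5% of the members, near the 10.3% and 10.8% of all genes. The median of this difference (KO minus WT, log2) over the 32 was 0.00, -0.17 and -0.10 on days 7, 14 and 21. Without the 3 KO libraries it was 0.00 and -0.02 on days 14 and 21. That fit drops libraries for lying nearer to naive, so it is no test of the response difference. With no response difference called, a gene called in WT mice and not in KO mice, such as Gaa, Tpp1 or Hexa, is not shown to respond differently.

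**Figure D4:**
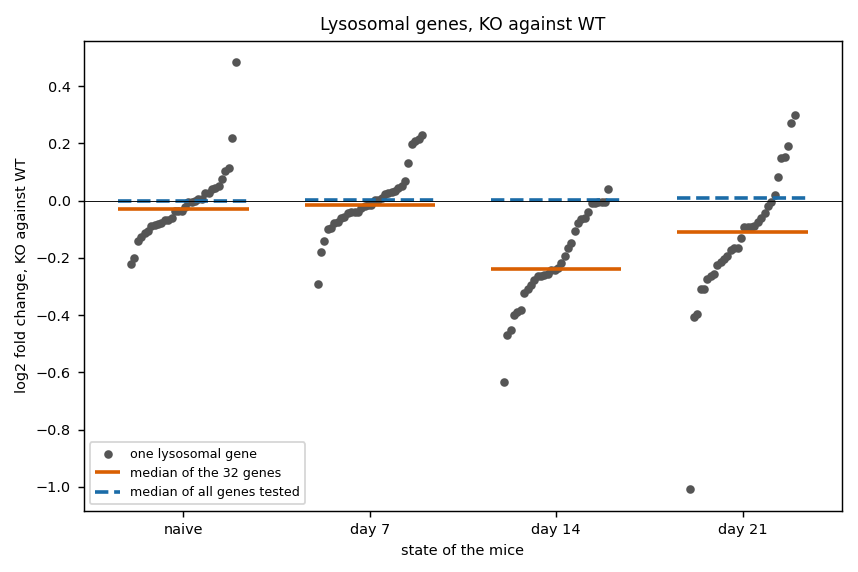
Log2 fold change of KO against WT for each of the 32 lysosomal genes (points, sorted within each time) in naive mice and on days 7, 14 and 21, with the median of the 32 (solid line) and of all genes tested (dashed line). The points straddle 0 in naive mice and on day 7, 31 of 32 are below 0 on day 14 and 25 on day 21, and none passed the threshold.

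The wider lysosome was read from lists of related genes. Of 29 other soluble lysosomal proteins, mostly hydrolases, 11, 14 and 13 rose and 4, 0 and 0 fell on days 7, 14 and 21 in KO mice, and 11, 18 and 16 rose and 4, 0 and 0 fell in WT mice. The rises were 37.9% to 48.3% of this list in KO mice and 37.9% to 62.1% in WT mice, above the 12% to 19.7% and 18.7% to 20.2% of all genes. The day 7 falls, 13.8% of the list in each genotype, were near the 14.4% and 15.3% of all genes. Their median log2 fold change on day 14 was 0.34 in KO mice and 0.44 in WT mice, beside 0.35 and 0.56 for the 32 genes above. Among those with the smallest p on day 14 in WT mice were Plbd1, a phospholipase B-like protein (log2 5.30 ± 0.75 in KO mice and 6.24 ± 0.65 in WT mice), Acp5, tartrate-resistant acid phosphatase (1.57 ± 0.21 in KO mice and 1.87 ± 0.21 in WT mice), and the carboxypeptidase Scpep1 (0.65 ± 0.13 in KO mice and 1.07 ± 0.13 in WT mice). In KO mice, Plbd1 was 0.230, 0 and 0.115 CPM in naive mice, 108, 94.8 and 64.1 on day 7, 7.94, 4.74 and 1.76 on day 14 and 3.74, 9.77 and 3.41 on day 21. In WT mice, Plbd1 was 0.233, 0.0588 and 0.475 CPM in naive mice, 88.9, 79.7 and 95.7 on day 7, 11.8, 22.2 and 30.5 on day 14 and 11.7, 6.58 and 9.40 on day 21. Plbd1 was near 0 in naive mice and highest on day 7 in both genotypes. Its fold changes rest on few naive counts: without KO naive mouse 1 the day 14 value in KO mice was log2 6.25, without WT naive mouse 3 that in WT mice was 7.28, and limma-voom did not call it in KO mice (adjusted p 0.0686).

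Of 18 subunits of the V-ATPase, the proton pump that acidifies the lysosome, 5, 1 and 3 rose and 3, 0 and 1 fell on days 7, 14 and 21 in KO mice, and 6, 6 and 6 rose and 2, 1 and 1 fell in WT mice. In KO mice the rises on days 14 and 21, 5.56% and 16.7% of the subunits, were below and near the 12% and 15% of all genes, and the day 7 falls (16.7%) were near the 14.4% of all genes. In WT mice 33.3% rose on each day, against 20.2%, 18.7% and 18.8% of all genes. Those with the smallest p on day 14 in WT mice were Tcirg1 (log2 1.14 ± 0.17), Atp6v0a1 (0.83 ± 0.12), Atp6v1a (0.53 ± 0.09) and Atp6v0c (0.65 ± 0.14), and in KO mice on that day their values were 0.45 ± 0.16, 0.27 ± 0.12, 0.40 ± 0.09 and 0.37 ± 0.14, of which that of Atp6v1a was called. Without the 3 KO libraries, the day 14 values in KO mice were log2 0.74 for Tcirg1, 0.59 for Atp6v0c and 0.44 for Atp6v0a1. That fit leaves 1 KO mouse on day 14 and drops libraries for lying nearer to naive, so it is no test of these rises. With all mice, DESeq2 called Tcirg1 (adjusted p 0.0424) and Atp6v0c (0.0448) in KO mice on day 14. On day 21 in KO mice edgeR called Tcirg1 (log2 0.50, adjusted p 0.0323), Atp6v1a (0.28, 0.0340) and Atp6v0c (0.41, 0.0386), and not Atp6v0a1 (0.23). These day 21 calls ended without any 1 of the naive KO mice or KO day 21 mouse 2 or 3 (adjusted p 0.0555 to 0.226). The named subunits were chosen by their p in WT mice on day 14, which favours larger values there than in KO mice. Of 26 other membrane proteins, 11, 8 and 11 rose and 4, 0 and 1 fell in KO mice on the 3 days, and 11, 13 and 14 rose and 5, 2 and 2 fell in WT mice. Of all genes, 19.7%, 12% and 15% rose in KO mice and 20.2%, 18.7% and 18.8% in WT mice. The day 7 falls, 15.4% of them in KO mice and 19.2% in WT mice, were near the 14.4% and 15.3% of all genes. Tpcn1, a lysosomal two-pore cation channel, rose by log2 2.43 ± 0.38 in KO mice (3.03 without the 3 KO libraries) and 3.98 ± 0.41 in WT mice on day 14, Cd63 by 1.46 ± 0.26 in KO mice and 2.41 ± 0.27 in WT mice, and Sidt2 by 0.39 ± 0.11 in KO mice and 0.56 ± 0.11 in WT mice. The call of Sidt2 in KO mice ended without KO naive mouse 2 or KO day 14 mouse 1 (adjusted p 0.0600 and 0.0684).

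Slc29a3, which encodes a nucleoside transporter of the lysosomal membrane, was the 1 gene of these lists called between the genotypes. In KO mice, Slc29a3 was 77.1, 61.5 and 71.0 CPM in naive mice, 194, 197 and 160.4 on day 7, 134, 103 and 83.9 on day 14 and 118, 146 and 146 on day 21. In WT mice, Slc29a3 was 63.4, 58.8 and 54.4 CPM in naive mice, 184, 176 and 173 on day 7, 158, 169 and 186 on day 14 and 145, 153 and 156 on day 21. On day 14 all KO mice lay below all WT mice, and on day 7 the groups overlapped. The day 14 difference of KO against WT was log2 -0.68 ± 0.13 (edgeR adjusted p 0.0459), and the day 14 response differed between the genotypes by -0.93 ± 0.19 (KO minus WT, adjusted p 0.0403). The first call ended without KO day 14 mouse 2 or 3 or WT day 14 mouse 2 or 3 (adjusted p 0.139 to 0.382), and without the 3 KO libraries (log2 -0.34). It also ended with median-ratio scaling (adjusted p 0.0545) and in a fit restricted to the groups compared (0.294). The second ended without KO naive mouse 1 or 3, KO day 14 mouse 2 or 3, or any 1 of the naive or day 14 WT mice (adjusted p 0.0541 to 0.144), without the 3 KO libraries (log2 -0.59, adjusted p 0.571) and in a fit restricted to the groups compared (0.0950).

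Hydrolases reach the lysosome by a mannose 6-phosphate tag and its receptors, or by sortilin. Of 13 genes of this route, 5, 3 and 4 rose and 2, 0 and 1 fell on days 7, 14 and 21 in KO mice, and 5, 4 and 4 rose and 2, 1 and 1 fell in WT mice. The day 7 falls (15.4% in each genotype) were near those of all genes, and the day 14 rises were 23.1% in KO mice and 30.8% in WT mice, against 12% and 18.7% of all genes. Igf2r, the larger mannose 6-phosphate receptor, was chosen as the gene of this list with the smallest p. In KO mice, Igf2r was 3.20, 0.773 and 1.82 CPM in naive mice, 96.8, 139 and 75.6 on day 7, 124, 81.5 and 44.4 on day 14 and 30.0, 113 and 146 on day 21. In WT mice, Igf2r was 1.13, 1.59 and 0.950 CPM in naive mice, 55.5, 96.7 and 82.6 on day 7, 97.0, 112 and 126 on day 14 and 110.0, 119 and 190.3 on day 21. All naive mice were at or under 3.2 CPM and all bleomycin mice at or above 30 CPM. Log2 fold changes of Igf2r were 5.74 ± 0.57, 5.42 ± 0.56 and 5.63 ± 0.56 in KO mice and 6.02 ± 0.59, 6.53 ± 0.60 and 6.85 ± 0.61 in WT mice, with a largest edgeR adjusted p of 9.65e-07. Sort1, which encodes sortilin, fell on day 7 (log2 -1.02 ± 0.12 in KO mice and -1.01 ± 0.12 in WT mice) and on day 14 in WT mice (-0.43 ± 0.12). Gga2 (log2 0.38 ± 0.10) and Ap1g1 (0.30 ± 0.08), adaptors of that transport, rose on day 14 in WT mice, and the call of Ap1g1 ended without WT naive mouse 3 (adjusted p 0.0580).

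Among the 4 MiT/TFE factors, Mitf rose by log2 0.59 ± 0.18 and Tfe3 by 0.33 ± 0.11 on day 14 in WT mice, and neither was called in KO mice on that day (0.34 ± 0.18 and 0.15 ± 0.11). In KO mice on that day Tfe3 was log2 0.38 without the 3 KO libraries. That fit leaves 1 KO mouse on day 14 and drops libraries for lying nearer to naive, so it cannot decide whether Tfe3 rose. Mitf was called in KO mice on day 14 in a fit restricted to the groups compared (edgeR adjusted p 0.0451). On day 21 Tfe3 was called in KO mice (log2 0.36, edgeR adjusted p 0.0262) and Mitf in WT mice (0.50, 0.0413). That call of Tfe3 ended without any 1 of the naive KO mice or KO day 21 mouse 2 or 3 (0.0574 to 0.172). That of Mitf ended without WT naive mouse 1 or any 1 of the WT day 21 mice (0.0531 to 0.196). By edgeR with all mice, no difference between the genotypes in response was called for the 4 factors on any day. On day 14 Tfeb had log2 -0.30 ± 0.13 in KO mice and 0.22 ± 0.13 in WT mice, and neither value was called. Without KO day 14 mouse 1 Tfeb was called lower in KO mice on day 14 (log2 -0.45, edgeR adjusted p 0.0344). Without WT naive mouse 2 it was called higher in WT mice on day 14 (0.38, 0.0343) and day 21 (0.45, 0.0154). Tfeb fell on day 7 in KO mice (-0.52 ± 0.13, edgeR adjusted p 0.00374). Tfec fell on day 7 in KO mice as well (-0.51 ± 0.17). The day 14 call of Mitf in WT mice ended without WT naive mouse 1 or WT day 14 mouse 3 (adjusted p 0.103 and 0.0906). That of Tfe3 in WT mice ended without any 1 of the naive WT mice or WT day 14 mouse 2 or 3 (0.0654 to 0.106). The day 7 call of Tfec in KO mice ended without KO naive mouse 3 or KO day 7 mouse 1 or 2 (0.0626 to 0.0810). Transcript levels of these factors say nothing of their entry into the nucleus, which was not measured.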

How the data were processed

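RNA-seq was run on macrophages from lavage of 24 mice (150 bp paired reads, 200 ng of total RNA, per the labels' protocols). The authors deposited expected counts per gene, estimated read counts with fractions in 3.11 to 3.85% of entries, with 1 column per mouse. Per the submitters' processing notes, the build was mm10 and the tools bcl2fastq, DESeq2 1.42.0 and limma 3.58.1. The sources used here do not give the aligner, the counter, the strand setting or whether a column sums both sequencing runs of a mouse. A further 24 columns of other samples were not used.

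The deposited expected counts were rounded to whole numbers. Genes were filtered with filterByExpr (minimum count 10, minimum total 15) on 8 groups, scaled by TMM, and fitted in 1 edgeR 4.0.16 quasi-likelihood model with a mean per group (R 4.3.3, 16 residual degrees of freedom). SE is the log2 fold change over the root of the F statistic. CPM uses TMM-scaled totals, so shares are relative: a gene may fall because others rise. Rn45s took 0.743 to 8.19% of counts. Alternatives were median-ratio scaling, no filter, a replicate block, the compared groups alone, DESeq2 1.42.0, limma-voom 3.58.1, each mouse left out and 3 KO libraries left out. On simulated data for WT day 14 against naive (12450 genes, 200 changed), 37.3% of 1.5-fold, 65.7% of 2-fold and 84.8% of 4-fold changes were recovered, with 4 of 129 calls false. In the real comparison 32.1% of genes were called, which eases the adjusted threshold, so the simulated recovery does not measure its power. Replicate mice differed beyond counting noise (chi-square per degree of freedom 13.4 to 227). Counts without molecular identifiers are not independent molecules.

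Members and lists were chosen with earlier results of these data known. Per-mouse values are given, by role, for the members with the highest and lowest log2 fold change of WT day 14 against naive. They are also given for the 2 lowest and 2 highest of KO against WT on day 14. From other lists up to 4 genes with the smallest p in WT day 14 against naive were named. Genes named for a strong rise in WT mice on day 14 tend to have larger values there than in KO mice. One gene that this rule names is not reported here. Exon lengths are from GENCODE M21 and promoters from RefSeq (GRCm38.p6). Genes that share exons with a gene on the other strand are uncertain.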

Additional observations from a re-analysis of the deposited data

Results flagged for a closer look

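The day 14 response of Slc29a3 to bleomycin differed between the genotypes by log2 -0.93 (KO minus WT, edgeR adjusted p 0.0403 for the test of that difference), with rises of 0.61 ± 0.13 in KO mice and 1.54 ± 0.14 in WT mice. It was the 1 gene of the lysosomal lists whose response difference passed the threshold on any day, and the call ended in 10 of the 12 fits that each left out 1 mouse, without the 3 KO libraries nearer to the naive mice (log2 -0.59, adjusted p 0.571) and in a fit restricted to the groups compared (adjusted p 0.0950).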

How the results depend on the processing

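Of 18 members called on day 7 in WT mice, 13 kept their call without any single mouse, as did 20 of 25 on day 14 and 20 of 23 on day 21; in KO mice it was 16 of 20, 8 of 18 and 11 of 21. Under all alternatives other than single left-out mice, 13, 22 and 21 were kept in WT mice and 18, 13 and 13 in KO mice, and under all alternatives together 11, 20 and 19 in WT mice and 16, 8 and 11 in KO mice. On day 7 in WT mice, the model of the compared groups alone ended the calls of Lamp1, Cd68, Mcoln1, Glb1 and Ids (adjusted p 0.0511 to 0.145). Without the filter on low counts, 8 calls of members against naive mice ended (adjusted p 0.0516 to 0.0821). No called member turned direction under any alternative. Called counts over the left-out mice ran from 9 to 22 for KO day 14 against naive, 0 to 5 for KO against WT on day 14, 0 to 2 on day 21 and 0 to 5 averaged, 0 to 1 for the day 14 response difference and 5 to 8 for WT day 21 against day 7. A model of the compared groups alone called 13 members for KO day 21 against naive, in place of 21, and 1 for KO day 21 against day 7, in place of 8. DESeq2 called 2 members for KO against WT on day 14, 1 on day 21 and 3 averaged, and limma-voom 1 averaged. The cause of these differences between fits was not tested.

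Single values near 0 changed sign. Ids for WT day 14 against naive was log2 -0.0054 to 0.24 over left-out mice, the lowest without WT naive mouse 3. For KO against WT on day 14, Ppt1 was -0.0205 to 0.113 over left-out mice, the lowest without KO day 14 mouse 3, and -0.105 without the 3 KO libraries. Mcoln1 was -0.0307 to 0.0173 over left-out mice, positive without KO day 14 mouse 1 or 2 or WT day 14 mouse 1, and Sgsh was 0.0641 without the 3 KO libraries and -1.15 to -0.28 over left-out mice. Mouse numbers did not pair the samples: over 84 pairs of mice with the same number the median correlation of deviations was -0.003, 18 exceeded 0.1, and 10 of 24 libraries were closest to their own number. With the number as a replicate block, each count stayed within 1.5 times, at 19, 17 and 21 members called on days 7, 14 and 21 in KO mice, 18, 25 and 22 in WT mice, 0 in each comparison of the genotypes, and 8 in KO mice and 12 in WT mice for day 21 against day 7. Under the block, Glb1 on day 7 (adjusted p 0.0507) and Gusb on day 14 (0.0572) in KO mice, Ppt1 on day 21 in WT mice (0.0568) and Slc29a3 for KO against WT on day 14 (0.0655) were not called. Median-ratio scaling moved the median of all genes by at most 0.02 on the log2 scale. With 3 mice a group, 1.5-fold changes were often missed in the simulated data. Far fewer genes changed there than were called in the real comparison, so the missed share does not carry over to it. Low counts in naive mice, such as those of Plbd1, Slc26a11 and Sgsh, limit the precision of their fold changes.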
